A study of Mus musculus with 12 samples.

Results

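The regions described here were FOXP3 or Ku70 ChIP-seq regions inside very long genes. A region was included when its summit lay on chromosomes 1 to 19, inside a protein-coding gene of 500 kb or longer from its annotated start to its end (GENCODE M21, mouse build mm10), and more than 3 kb from any annotated transcript start. Of 9381 regions in the 4 deposited lists, 9043 were autosomal and 468 met the rule: 100 of 1690 autosomal regions in the FOXP3 list from WT Tregs, 38 of 513 in the FOXP3 list from KO Tregs, 297 of 5149 in the Ku70 list from Tregs and 33 of 1691 in the Ku70 list from Tconv cells.

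ChIP-seq pulls down chromatin with an antibody and sequences the DNA that comes with it. FOXP3 was pulled down in sorted CD4+CD25+YFP+ regulatory T cells (Tregs) of Foxp3 Yfp-Cre mice (WT) and of Xrcc6 fl/fl Foxp3 Yfp-Cre mice (KO), in which Cre driven by Foxp3 deletes Xrcc6, the gene for Ku70, in Tregs. Ku70 was pulled down in Tregs and in CD4+CD25-YFP- conventional T cells (Tconv) of Foxp3 Yfp-Cre mice. Each of these 4 sets had 2 replicate libraries and 1 input library, 12 in all. The WT and KO mice both carried the Foxp3 Yfp-Cre allele on a C57BL/6J background, and the age at sorting was not given for these libraries. Names of single regions call the cells iTreg or Teff and the knockout CKO; the groups used here are those of the labels. Regions were called once per set on pooled replicates, so no list has a spread between replicates. Intervals below therefore cover counting error only, tests compare lists rather than conditions, and how list length follows from read depth was not tested.

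FOXP3 is the forkhead transcription factor that defines Tregs, and forkhead proteins bind DNA at short cores such as TGTTTAC, singly or in repeated arrays. Ku70 forms with Ku80 a ring that loads onto broken DNA ends and starts their joining. Many very long genes are expressed mainly in neurons. They consist almost entirely of intron, and include the common fragile sites, which tend to break when DNA replication is slowed.

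The reference sequences that the results turn on are given first, as the plus strand of mm10 read from the RefSeq assembly GRCm38.p6. The first 3 are the only places where a member overlapped a region of another list. In the Dock2 sequence (chr11:34681865-34682164, intron, WT FOXP3 and KO FOXP3 lists) capitals mark TGTTTAC on the minus strand. In the Mdga2 (chr12:67059328-67059473, intron, Treg Ku70 and Tconv Ku70 lists) and Lingo2 (chr4:36208385-36208531, intron, KO FOXP3 and Tconv Ku70 lists) sequences, capitals mark the 31 bases centred on the summit.
Dock2: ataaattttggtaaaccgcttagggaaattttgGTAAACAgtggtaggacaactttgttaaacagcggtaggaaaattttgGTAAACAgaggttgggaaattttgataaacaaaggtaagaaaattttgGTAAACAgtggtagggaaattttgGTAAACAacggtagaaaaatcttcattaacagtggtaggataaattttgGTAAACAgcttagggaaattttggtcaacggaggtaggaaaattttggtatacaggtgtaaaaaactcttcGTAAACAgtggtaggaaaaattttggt
Mdga2: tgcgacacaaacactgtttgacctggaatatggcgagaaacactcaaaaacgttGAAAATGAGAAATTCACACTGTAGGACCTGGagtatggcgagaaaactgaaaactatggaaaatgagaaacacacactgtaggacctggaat
Lingo2: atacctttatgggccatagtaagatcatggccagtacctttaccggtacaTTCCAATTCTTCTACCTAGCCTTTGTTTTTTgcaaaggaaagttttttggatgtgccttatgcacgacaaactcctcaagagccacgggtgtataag
Dock2 activates the GTPase Rac and is needed for lymphocyte migration, Mdga2 is an adhesion molecule of synapses, and Lingo2 is a neuronal membrane protein.

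The Dock2 site was a short tandem array. Its summit was at 34681926 in the WT list and 34681936 in the KO list, 10 bp apart and 102 kb from the 5′ end of the gene. The 301 bp around either summit held 8 copies of TGTTTAC (both strands searched), and these were the only 2 of the 9043 autosomal regions with 3 or more copies. Every other region had 2 at most. Within the 300 bases printed above, the first bases of the 6 cores lay at -28, 20, 68, 92, 141 and 212 relative to the WT summit, all on the minus strand. Shifted by 48 bp, 73.9% of the bases in the window matched themselves (73.5% around the KO summit), against a median best match of 32.6% over WT FOXP3 members for any shift of 8 to 60 bp. The 31 bases at the summit occur once in the genome. Fold enrichment over input was 1.64 in the WT list (−log10 p 2.67) and 2.28 in the KO list (−log10 p 4.81), and the latter was the highest −log10 p of any KO member. The counts of copies and the repeat were noticed after the sequence had been read, so they describe this site and test nothing. No Ku70 region overlapped it, and the nearest of 4 Treg Ku70 members in Dock2 was 303 kb from the 5′ end.

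The Mdga2 site held the members with the highest −log10 p of both Ku70 lists, though not the highest fold. Fold enrichment was 2.49 in Tregs (−log10 p 8.17, −log10 q 2.23) and 2.67 in Tconv cells (−log10 p 11.2, −log10 q 4.37). The summits at 67059397 and 67059407 were 10 bp apart, and these were the only members of any list with a −log10 q above 0. Of the Treg region 77.4% was soft-masked as repeat, and of the Tconv region 79.8%. A shift of 58 bp matched 69.1% of the bases around the Treg summit. The letters resemble the unit of the mouse major satellite, the tandem repeat of pericentromeric DNA, by eye only, and that likeness was not measured. The 31 bases at each summit nevertheless occur once in the assembly, which holds little pericentromeric sequence.

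The Lingo2 site was repeat sequence throughout. The whole of both regions was soft-masked, and the 31 bases at the summits occur 260 times in the genome (KO FOXP3) and 184 times (Tconv Ku70). Fold enrichment was 1.82 in the KO FOXP3 list (−log10 p 1.47) and 3.17 in the Tconv Ku70 list (−log10 p 3.45). A second Tconv Ku70 member lay 670 bp from the first, with 42 copies of its summit sequence. The sequenced reads were longer than 31 bases, and whether they can be assigned to a particular copy was not measured.

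Apart from Dock2, 5 members had TGTTTAC within 50 bp of the summit. They are shown because they are all of them, with the core in capitals, as 101-bp windows around the summit.
Immp2l, WT FOXP3, chr12:41655303-41655403: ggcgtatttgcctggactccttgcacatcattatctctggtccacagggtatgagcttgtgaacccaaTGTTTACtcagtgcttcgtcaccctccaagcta
Magi2, WT FOXP3, chr5:20167933-20168033: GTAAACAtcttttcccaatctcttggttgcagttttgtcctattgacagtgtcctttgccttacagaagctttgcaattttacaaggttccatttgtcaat
Sntg1, KO FOXP3, chr1:8653621-8653721: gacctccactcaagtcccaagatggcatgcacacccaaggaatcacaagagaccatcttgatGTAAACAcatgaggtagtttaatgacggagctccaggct
Macrod2, Treg Ku70, chr2:141531119-141531219: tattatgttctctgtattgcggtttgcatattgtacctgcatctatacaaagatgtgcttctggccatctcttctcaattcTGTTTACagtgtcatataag
Lsamp, Treg Ku70, chr16:41570440-41570540: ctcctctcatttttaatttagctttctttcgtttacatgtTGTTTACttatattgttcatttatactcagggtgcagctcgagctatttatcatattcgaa
All 5 lie in introns of the genes named. The Magi2 window is repeat sequence whose summit occurs 914 times, and the Sntg1 summit occurs 2 times. With Dock2 included, the core was found in 3 of 100 WT FOXP3 members (3.00%, 95% Wilson interval 1.03% to 8.45%), 2 of 38 KO FOXP3 members (5.26%, 1.46% to 17.3%), 2 of 297 Treg Ku70 members (0.673%, 0.185% to 2.42%) and 0 of 33 Tconv Ku70 members, which allows a share of up to 9.09%. The shares over all autosomal regions of these lists were 1.48%, 1.95%, 1.05% and 0.710%. The intervals of the members contain those shares in all 4 lists. The array of 3 TTTG units in a row, a repeat that FOXP3 is known to bind, was within 50 bp of 0 of the 468 summits. Among the other regions it was near 4 of 1590, 1 of 475, 10 of 4852 and 2 of 1658, in the same order of lists. The shares over all autosomal regions were 0.237%, 0.195%, 0.194% and 0.118%. The 0 counts of members allow shares of up to 3.00%, 7.89%, 1.01% and 9.09%, so no difference was detectable. No match says only that these letters were not in the window.

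Very long genes held fewer Ku70 regions in Tconv cells than their share of the genome, while the other lists came closer to it. The rule covers 172 Mb, or 7.20% of the autosomal bases, in 218 genes. WT FOXP3 placed 5.92% of its regions there (95% Wilson interval 4.89% to 7.15%), KO FOXP3 7.41% (5.44% to 10.0%), Treg Ku70 5.77% (5.16% to 6.44%) and Tconv Ku70 1.95% (1.39% to 2.73%). Only the interval of the KO list contains 7.20%. Per base, Tconv Ku70 members were 0.271 times as dense as regions on all other autosomal bases more than 3 kb from a start (95% exact interval 0.186 to 0.382). The ratio was 0.795 for Treg Ku70 (0.705 to 0.895), 0.804 for WT FOXP3 (0.649 to 0.986) and 1.08 for KO FOXP3 (0.751 to 1.51). The other bases include those outside protein-coding genes, where WT FOXP3 had 0.777 regions per Mb. It had 0.580 in very long genes and 0.544 to 0.719 in the classes of shorter genes. A WT FOXP3 density below that outside genes was thus shared by shorter genes.

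**Figure D1:**
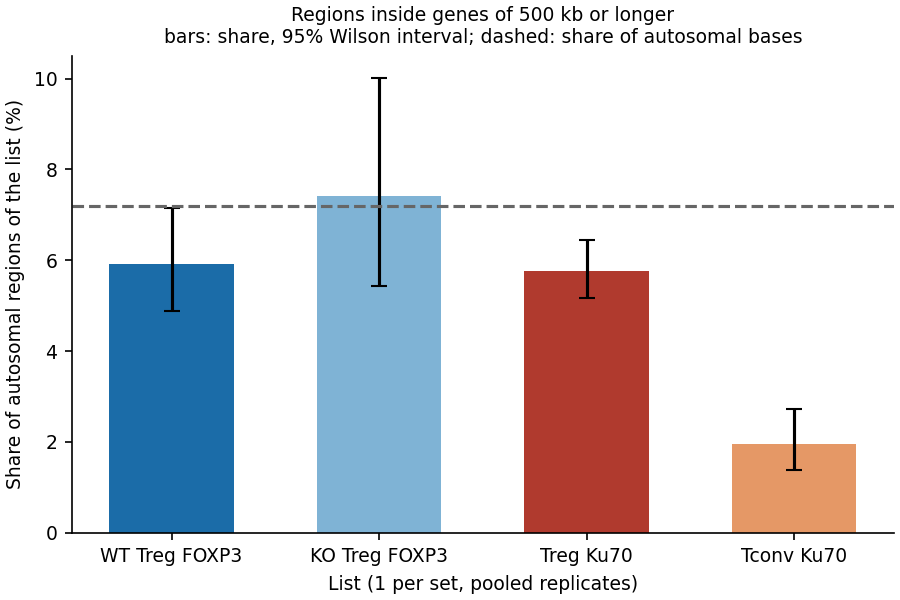
Share of each list's autosomal regions (%, y axis) that lay inside genes of 500 kb or longer and more than 3 kb from any transcript start, for the 4 lists (x axis). Bars are shares with 95% Wilson intervals, and the dashed line is the 7.20% of autosomal bases that meet the same rule; the Tconv Ku70 bar, at 1.95%, is the lowest.

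Comparing Ku70 between cell types asks where Ku70 lies in Tregs and not in Tconv cells. The odds of a region being in a very long gene were 3.08 times higher in the Treg Ku70 list than in the Tconv Ku70 list (95% interval 2.13 to 4.57, Fisher's exact test, two-sided, adjusted p = 1.67e-11 over 3 pairs of lists). GC content moved with this difference: members had a median GC of 42.5% in the Treg list and 47.7% in the Tconv list, and the other regions 43.7% and 48.2%. Very long genes were 40.2% GC, against 43.0% in the bodies of other protein-coding genes. Among regions with less than 45% GC the odds ratio was 3.73 (adjusted p = 5.50e-05, Fisher's exact test), and among those with 45% or more it was 2.38 (the same test, adjusted p = 0.000189). With both lists cut to the 513 regions of the shortest list it was 2.41 (Fisher's exact test, adjusted p = 0.0437).

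The 2 FOXP3 lists, which address the effect of losing Ku70 on FOXP3 binding, were not distinguishable by this share. The odds ratio of WT against KO was 0.786 (95% interval 0.528 to 1.19, Fisher's exact test, adjusted p = 0.378). WT FOXP3 and Treg Ku70, compared to see whether both proteins occupy the same kind of place in Tregs, gave an odds ratio of 1.03 (0.805 to 1.30, Fisher's exact test, adjusted p = 0.811). The intervals allow sizeable differences in either direction, so a p that misses the threshold does not show that these lists are alike.

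The Tconv Ku70 density was lower in longer genes up to the 500 kb limit, and lowest above it, where the classes overlapped in their intervals. Counting regions more than 3 kb from a start, it was 1.38 regions per Mb in genes under 50 kb (exact 95% Poisson interval 1.18 to 1.60), 0.606 in genes of 250 to 500 kb (0.488 to 0.744), 0.193 in genes of 500 to 750 kb (0.0999 to 0.338), 0.315 in genes of 750 kb to 1 Mb (0.163 to 0.551) and 0.124 in genes of 1 Mb or longer (0.0569 to 0.236). Outside protein-coding genes it was 0.602, so that long genes lay below the density between genes and short genes above it. The Treg Ku70 density fell less, from 2.61 (2.34 to 2.92) in genes under 50 kb to 1.51 (1.24 to 1.82) in genes of 1 Mb or longer. WT FOXP3 had 0.544 (0.422 to 0.691) and 0.498 (0.348 to 0.689) at these ends, and KO FOXP3 0.203 (0.131 to 0.300) and 0.207 (0.116 to 0.342), with no gradient beyond the intervals in either list.

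**Figure D2:**
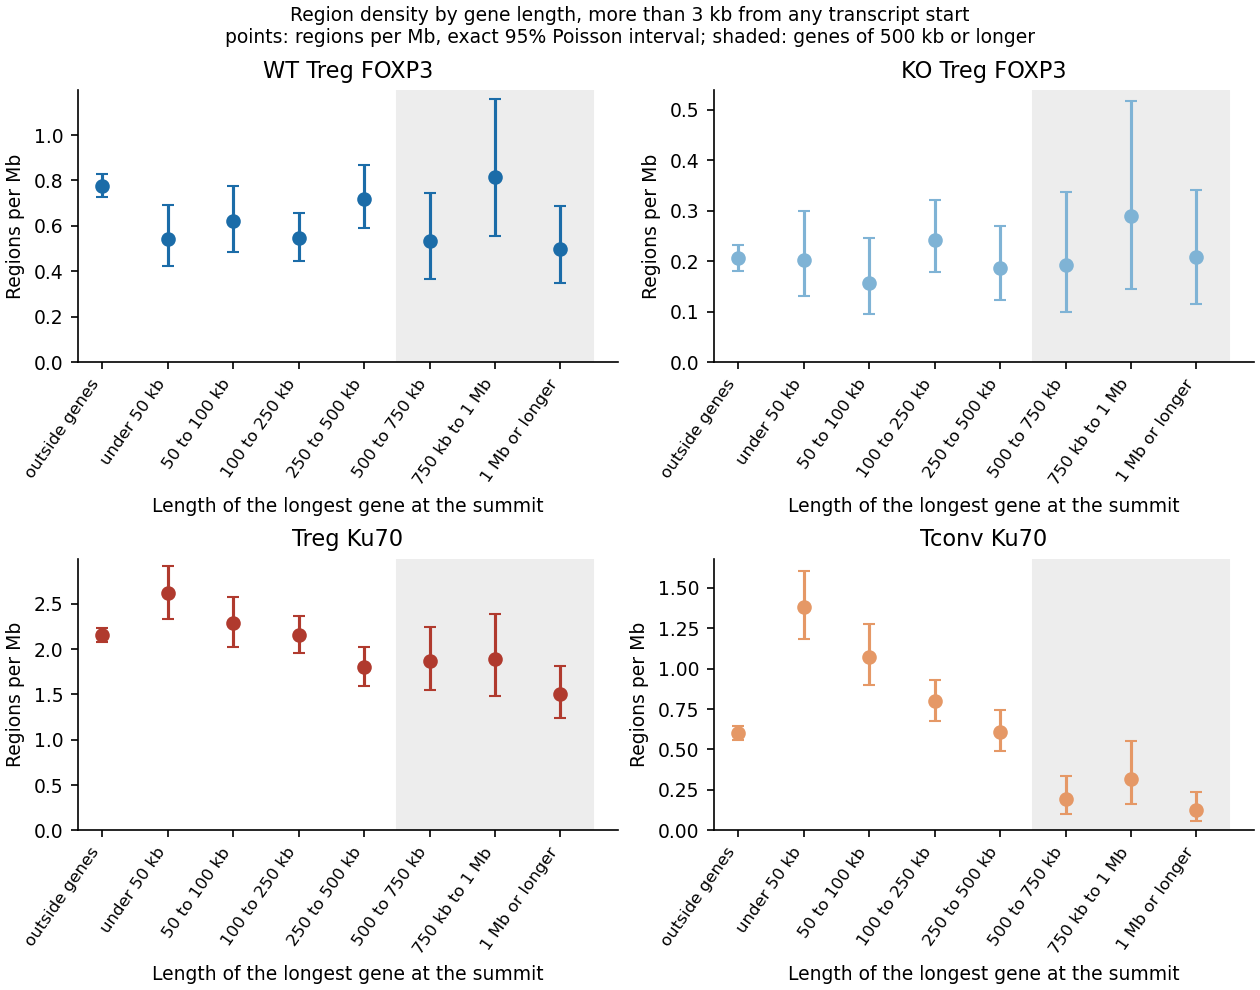
Regions per Mb (y axis, a separate scale from 0 in each panel) against the length of the longest protein-coding gene at the summit (x axis), for the 4 lists, with regions within 3 kb of a transcript start left out. Points are densities with exact 95% Poisson intervals and the shading marks genes of 500 kb or longer; the Tconv Ku70 density is 1.38 regions per Mb in the shortest genes and 0.124 to 0.315 in the shaded classes, and the FOXP3 lists show no such fall.

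At the limits of the rule, Pde1c (499 kb) was the longest gene left out, with 2 WT FOXP3 regions and 1 Tconv Ku70 region, and Edil3 (502 kb) the shortest taken in, with 3 Treg Ku70 members. Regions in very long genes but within 3 kb of a start, which are not members, numbered 28 for Treg Ku70, 11 for WT FOXP3, 3 for Tconv Ku70 and 0 for KO FOXP3.

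Members were spread over most of the genes. At least 1 member was found in 181 of the 218 genes, and 120 genes held 2 or more over the 4 lists. Equal density over the eligible bases of these genes would give 127 genes with 2 or more and 34.2 genes with none, where 37 had none. Within lists, 16 genes had 2 or more WT FOXP3 members (equal density gives 18.5), 78 had 2 or more Treg Ku70 members (82.2), 6 had 2 or more KO FOXP3 members (3.43) and 4 had 2 or more Tconv Ku70 members (2.79). These expected numbers are descriptions without a test, and the observed counts lay close to them in the longer lists.

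Genes hit more often were longer. The median length was 0.617 Mb for genes with no member, 0.682 Mb with 1 and 0.845 Mb with 2 or more. Of the 55 genes of 1 Mb or longer 94.5% had a member and 76.4% had 2 or more, against 77.2% and 43.9% of the 114 genes of 500 to 750 kb. Across genes, which are not independent replicates, the Spearman rho of members with length was 0.328 over the 4 lists, and that of members per Mb with length was -0.0677. Longer genes therefore had more members but not more per base.

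**Figure D3:**
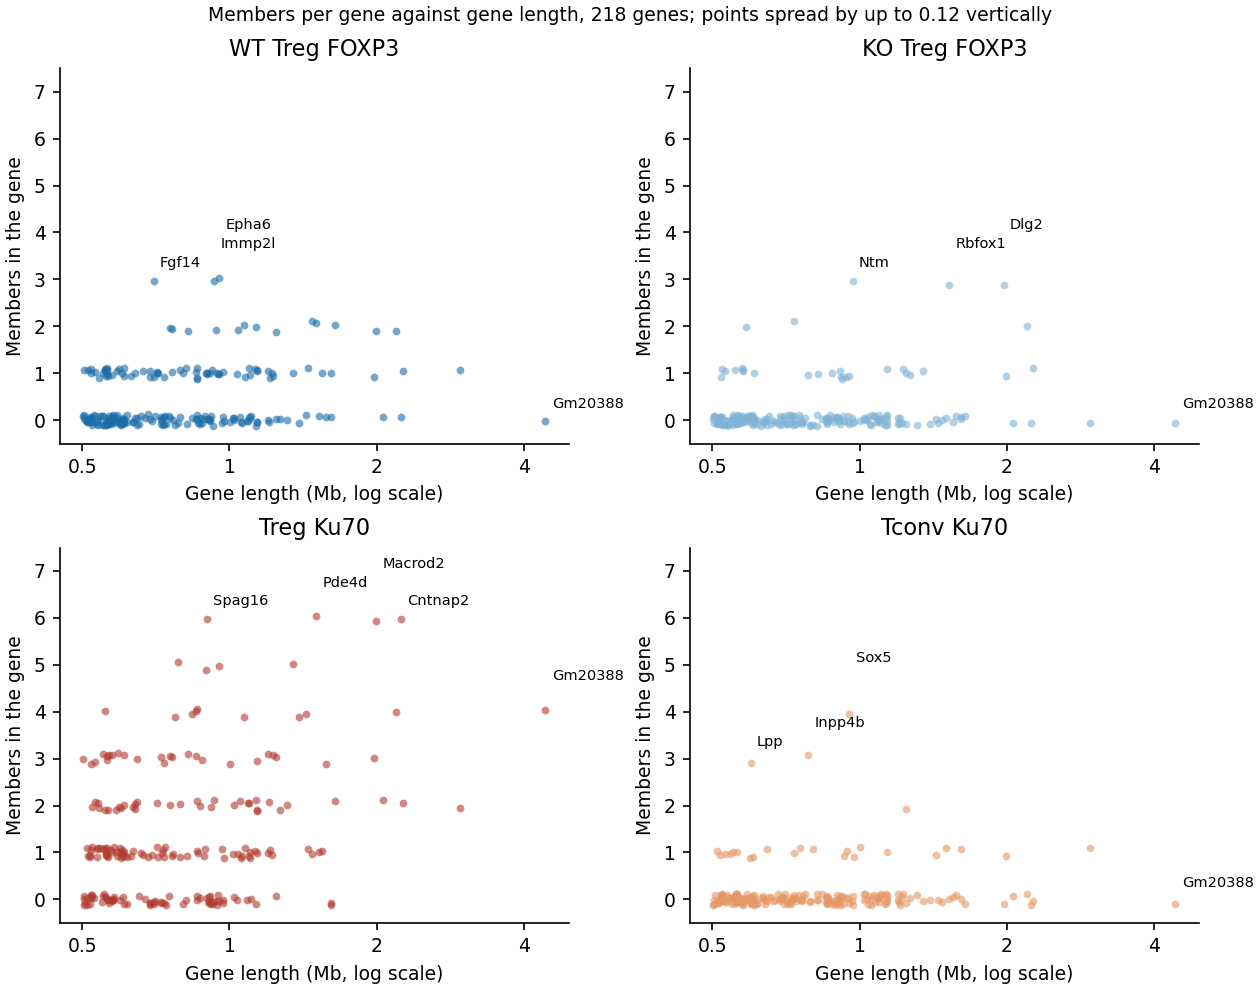
Members in each of the 218 genes (y axis, points shifted by up to 0.12 to separate them) against gene length in Mb (x axis, log scale), for the 4 lists. Named points are the genes with the most members in each list and the longest gene model, Gm20388; the highest count is 6, in the Treg Ku70 list.

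Macrod2, which encodes an enzyme that removes ADP-ribose from proteins and lies in a common fragile site, had the most members, 10 in 2.00 Mb. Treg Ku70 had 6 of them, between 796 and 1509 kb from the 5′ end, with fold enrichments of 1.85 to 2.22, and the summit at 1509 kb occurs 4192 times. WT FOXP3 had 2 (1.84 and 1.99), KO FOXP3 1 (2.33) and Tconv Ku70 1 (2.10). The WT FOXP3 member at 799 kb lay 3.42 kb from a Treg Ku70 member, and the KO FOXP3 member at 878 kb lay 9.64 kb from another, with no overlap. Sgcz, which encodes a sarcoglycan of the muscle membrane, was the only other gene with a member in all 4 lists, with 5 in 1.14 Mb.

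Inpp4b, a phosphatase of the PI3K pathway, spans 0.785 Mb and had 9 members, or 12.4 per Mb of its bases more than 3 kb from a start. Its 5 Treg Ku70 members all lay in the 3′ part of the gene, from 575 to 738 kb, with fold enrichments of 2.04 to 2.41. Its 3 Tconv Ku70 members lay at 10.2, 197 and 578 kb, with fold enrichments of 2.60, 2.81 and 2.10. The last of these was 3.23 kb from a Treg Ku70 member. The single KO FOXP3 member fell on sequence with 7972 copies. The summit of the Treg Ku70 member at 613 kb occurs 262 times, and that of the Tconv Ku70 member at 578 kb 5 times.

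Pde4d, a phosphodiesterase that breaks down cyclic AMP, had 9 members in 1.504 Mb: 6 Treg Ku70, 2 WT FOXP3 and 1 Tconv Ku70. Epha6, an ephrin receptor, had 8 (5 Treg Ku70 and 3 WT FOXP3), and in this gene a WT FOXP3 and a Treg Ku70 member lay 8.17 kb apart. Lsamp, a neuronal adhesion protein, had 8: 4 Treg Ku70, 2 WT FOXP3 and 2 KO FOXP3. Spag16, a protein of the sperm tail, had the highest Treg Ku70 density among the genes with 6 such members, at 7.07 per Mb of such bases.

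**Figure D4:**
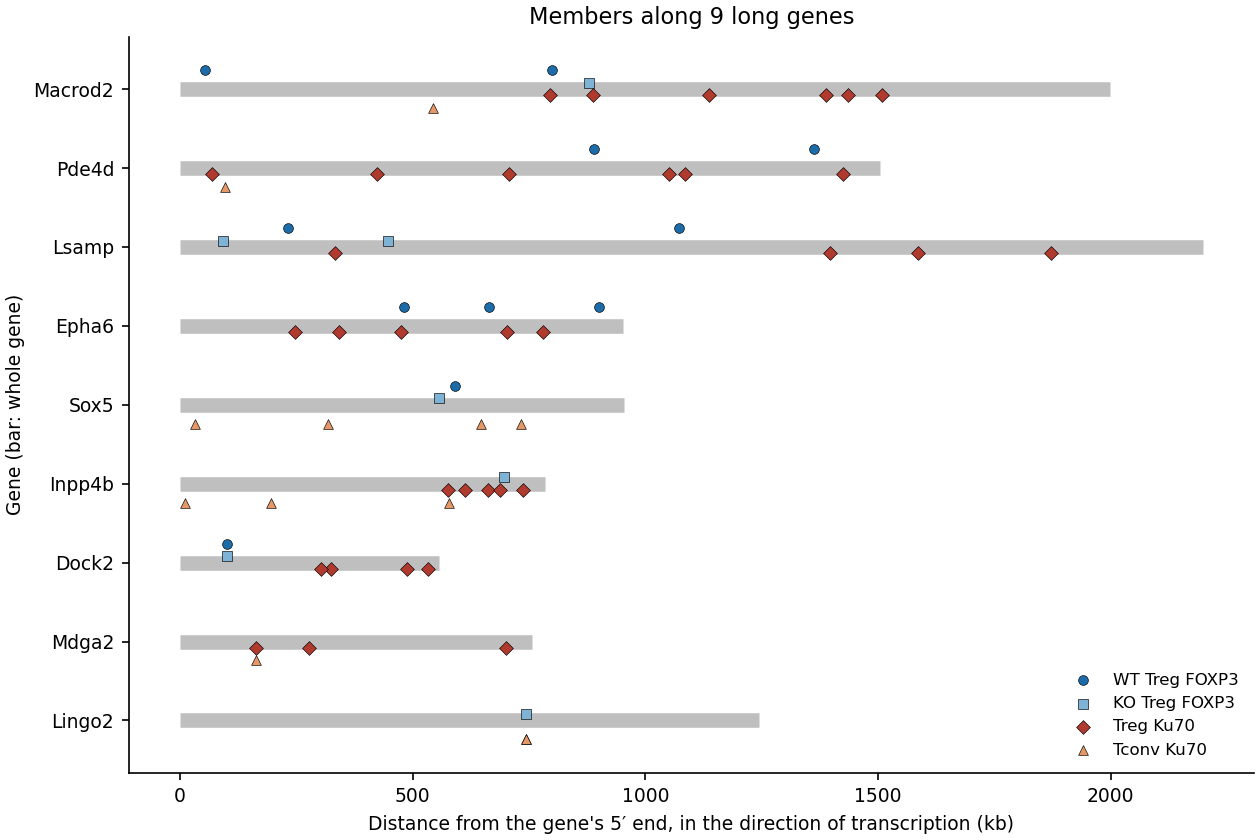
Positions of members along 9 of the genes (rows), as distance in kb from the 5′ end in the direction of transcription (x axis). Grey bars are whole genes and symbols are members by list; in Dock2 the WT and KO FOXP3 symbols lie at the same place, 102 kb, in Mdga2 the Treg and Tconv Ku70 symbols lie together at 163 kb, and in Inpp4b the 5 Treg Ku70 symbols lie between 575 and 738 kb.

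The genes with the most members differed between lists. WT FOXP3 had 3 members each in Fgf14, which regulates sodium channels, Immp2l, a mitochondrial peptidase, and Epha6. KO FOXP3 had 3 each in Ntm, an adhesion protein, Rbfox1, a splicing regulator, and Dlg2, a synaptic scaffold. Tconv Ku70 had 4 in the transcription factor gene Sox5, where Treg Ku70 had none, and 3 each in Inpp4b and in Lpp, a protein of cell adhesion sites. In Lpp Treg Ku70 had 1. The Sox5 members lay at 32.9, 319, 647 and 732 kb with fold enrichments of 2.10, 2.63, 2.10 and 2.46. Some of these members had multi-copy summits. They were WT FOXP3 members in Immp2l (3 and 114 copies) and Epha6 (30 copies), and a KO FOXP3 member in Ntm (2837 copies). The WT FOXP3 members in Fgf14 and the KO FOXP3 members in Rbfox1 and Dlg2 were all single-copy. No test of these single-gene differences was made.

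The longest genes were mostly not those with the most members. Of the 5 longest, only Lsamp (2.20 Mb, 8 members) was also among the 5 with the most members. Macrod2, which had the most, ranked 7 of 218 by length. The longest model, Gm20388 (4.43 Mb), had 4 members, all Treg Ku70, and Fgfr2, a growth factor receptor whose annotated model spans 2.96 Mb, had 4. These models overlap 73 and 30 other protein-coding genes, so their members may lie in other genes too. The next longest were Ptprd, a receptor phosphatase, with 4 members, and Cntnap2, a neurexin relative, with 6, all Treg Ku70 and all between 1522 and 2173 kb of its 2.24 Mb. The longest gene without a member was Auts2 (1.11 Mb).

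A list of very long genes with roles in T cells or other lymphocytes was drawn up with earlier results known, so its values only describe. Per base, the genes listed stood higher in both Ku70 lists. All 15 had a member, against 181 of all 218 very long genes, with 52 members in the 15. How far this count and the densities depend on which genes were listed was not tested. Ntrk3, with 1 member, is also in the neuronal adhesion and synapse group below. Treg Ku70 had 35 members in 13 of the 15, or 3.83 per Mb of bases more than 3 kb from a start (exact 95% Poisson interval 2.67 to 5.33). Over all 218 genes it had 1.72 (1.53 to 1.93). Tconv Ku70 had 7 members in 5 of the 15, of which 3 were in Inpp4b. This was 0.766 per Mb (0.308 to 1.58), against 0.195 (0.135 to 0.273). For WT FOXP3 the values were 0.657 (0.241 to 1.43) and 0.581 (0.473 to 0.705), and for KO FOXP3 0.438 (0.119 to 1.12) and 0.218 (0.155 to 0.300), with overlapping intervals. Inpp4b, Pde4d and Dock2 led this group with 9, 9 and 6 members. Arhgap15, a regulator of Rac, had 3 Treg Ku70 members and 1 Tconv Ku70 member, and Foxp1, a forkhead factor of naive T cells, had 1 of each. These genes had a median length of 0.574 Mb against 0.733 Mb over all, a GC content of 40.8% against 40.3%, and 24.4% masked bases against 28.5%. Their transcription in these cells was not measured here, and no test was made because of how the list was drawn up.

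The 24 common fragile site genes of the list did not stand apart. They had 1.67 Treg Ku70 members per Mb (1.22 to 2.24), 0.521 WT FOXP3 (0.285 to 0.874), 0.186 KO FOXP3 (0.0604 to 0.434) and 0.149 Tconv Ku70 (0.0405 to 0.381), each interval containing the value over all very long genes. Members were found in 20 of them, led by Macrod2, Naaladl2 and Dlg2, while Auts2, Dpyd, Nbea and Wwox had none. The 70 genes listed as neuronal adhesion and synapse genes include Sgcz, Rbfox1 and Fgf14, described above by other roles. This group had 1.47 Treg Ku70 members per Mb (1.20 to 1.79). It had 0.0883 Tconv Ku70 members per Mb (0.0324 to 0.192), from 6 members in 5 genes. The Tconv Ku70 value over all very long genes, 0.195, lies just above that interval. In the other lists the interval of the group contains the value over all very long genes. WT FOXP3 had 0.677 (0.495 to 0.903) and KO FOXP3 0.250 (0.146 to 0.4004) in these genes. Some genes, such as Dlg2 and Cntnap2, belong to both groups.

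**Figure D5:**
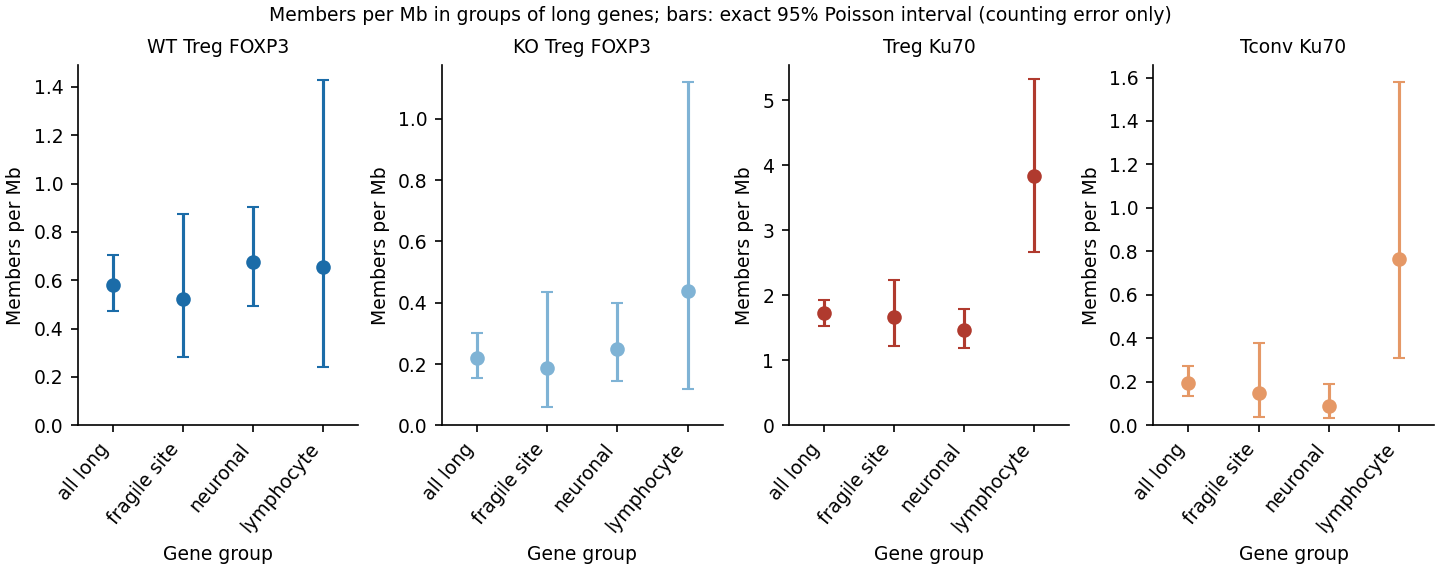
Members per Mb (y axis, a separate scale from 0 in each panel) in all 218 very long genes, 24 common fragile site genes, 70 neuronal adhesion and synapse genes and 15 lymphocyte genes (x axis), for the 4 lists. Points are densities with exact 95% Poisson intervals; for Treg Ku70 the lymphocyte genes stand at 3.83 per Mb against 1.72 over all. The groups were chosen with earlier results known, and no test was made.

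Sharing of the same site between lists was rare. Of the WT FOXP3 members 1 of 100 (1.00%, 95% Wilson interval 0.177% to 5.45%) overlapped a KO FOXP3 region, against 1.78% of all autosomal WT regions. Of the KO FOXP3 members 1 of 38 (2.63%, 0.466% to 13.5%) overlapped a WT region, against 5.46%. In both directions this is the Dock2 site, and the shares of all regions lie inside the intervals.

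For Ku70, 1 of 297 Treg members (0.337%, 0.0595% to 1.88%) overlapped a Tconv region, against 0.816% of all Treg regions, and 1 of 33 Tconv members (3.03%, 0.537% to 15.3%) overlapped a Treg region, against 2.54%. Both are the Mdga2 site. None of the 100 WT FOXP3 members overlapped a Treg Ku70 region, which allows a share of up to 3.00%, against 1.66% of all WT regions. In the other direction 0 of 297 Treg Ku70 members overlapped a WT FOXP3 region, allowing up to 1.01%, against 0.524%. The Lingo2 site makes up 1 of 38 KO FOXP3 members (2.63%) that overlapped a Tconv Ku70 region, against 1.36% of all KO regions, and 1 of 33 Tconv Ku70 members (3.03%, 0.537% to 15.3%) that overlapped a KO FOXP3 region, against 0.532%, just under the lower bound. This pair of lists was not among the 3 tested. For the other pairs no difference from the lists as a whole was detectable at these counts.

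Genes were shared far more often than sites. Of the 29 genes with a KO FOXP3 member 55.2% also had a WT FOXP3 member, which is 19.5% of the 82 WT genes. Of the 26 genes with a Tconv Ku70 member 73.1% also had a Treg Ku70 member, which is 12.8% of the 149 Treg genes. WT FOXP3 and Treg Ku70 shared 57 genes, 69.5% of the former and 38.3% of the latter. Equal density by length would give 13.9, 23.4 and 58.0 shared genes for these pairs, where 16, 19 and 57 were found. Genes hit in more lists were longer, with medians of 0.700 Mb for 1 list, 0.805 Mb for 2 and 0.943 Mb for 3. Within 10 kb of each other, 13 pairs of members came from different lists and 6 from the same list.

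The called signal in very long genes was weak, as it was in the other regions of the lists. WT FOXP3 members had a median fold enrichment of 1.99 and the other WT regions 2.05. The values were 2.19 and 2.11 for KO FOXP3, 2.04 and 2.04 for Treg Ku70, and 2.28 and 2.11 for Tconv Ku70. The median −log10 p of members and other regions was 1.34 and 1.78 for WT FOXP3 and 1.40 and 1.40 for KO FOXP3. It was 1.47 and 1.47 for Treg Ku70, and 2.16 and 1.95 for Tconv Ku70. In 54 of 100 WT FOXP3 members the −log10 p was the same value, 1.34. The commonest value among members was shared by 152 of 297 for Treg Ku70, 26 of 38 for KO FOXP3 and 11 of 33 for Tconv Ku70. Such ties were not counted among the other regions.

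By −log10 p, the strongest members of the WT FOXP3 list stood above the shared Dock2 site, whose fold was the lowest of the list's members. They were in Camta1, a calmodulin-binding transcription activator (fold enrichment 2.89), Cntnap5b (2.74) and Naaladl2 (2.74), each with a −log10 p of 3.07. The summit of the Cntnap5b member occurs 13 times in the genome and that of the Naaladl2 member 4218 times, while the Camta1 summit is single-copy. In the KO FOXP3 list Cadps2, a protein of vesicle release, followed Dock2 with a fold enrichment of 2.62, and the members in Nckap5, Ryr3, Sgcz and Tenm2 were tied behind it at 2.48, all with a −log10 p of 2.02. In the Treg Ku70 list Zbtb20, a zinc finger repressor (3.15), and Skint5, of a family expressed in skin and thymus (2.97), followed Mdga2, both with a −log10 p of 3.31. In the Tconv Ku70 list Lingo2 and Immp2l (2.99) followed it. The Camta1 member (chr4:151102239-151102396) and the Zbtb20 member (chr16:43168186-43168341) are shown, with the 31 bases at the summit in capitals. They had the highest −log10 p of their lists among members with single-copy summits outside the shared sites. Of the Zbtb20 region 64.1% was soft-masked as repeat, and of the Camta1 region 0%.
Camta1: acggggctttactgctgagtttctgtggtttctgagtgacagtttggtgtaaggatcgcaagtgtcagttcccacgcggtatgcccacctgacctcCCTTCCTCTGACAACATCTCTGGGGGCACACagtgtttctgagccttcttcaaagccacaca
Zbtb20: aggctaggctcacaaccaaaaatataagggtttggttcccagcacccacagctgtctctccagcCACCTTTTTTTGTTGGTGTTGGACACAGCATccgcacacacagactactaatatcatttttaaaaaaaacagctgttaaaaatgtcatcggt
Neither overlapped a region of another list.

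Members lay on unique sequence more often than the other regions of the list in 3 of the 4 lists, but this was shared by regions in shorter genes. The 31 bases at the summit occurred more than once in the genome in 20% of WT FOXP3 members (95% Wilson interval 13.3% to 28.9%) against 35.3% of the others (33.0% to 37.7%), and in 13.2% of KO FOXP3 members (5.75% to 27.3%) against 38.5% (34.3% to 43.0%). For Treg Ku70 the shares were 18.5% (14.5% to 23.3%) and 28.2% (26.9% to 29.5%), and for Tconv Ku70 24.2% (12.8% to 41.0%) and 32.6% (30.4% to 34.9%). The intervals overlapped only in the Tconv list. In the bodies of other protein-coding genes the shares were 23.7% (WT FOXP3), 26.7% (KO), 20.2% (Treg Ku70) and 18.9% (Tconv), each inside the interval of the members, and outside genes they were 32.6% to 44.9%. With only single-copy summits counted, the density ratio was 1.54 for KO FOXP3 (1.03 to 2.22), where it was 1.08 over all regions. It was 0.971 for WT FOXP3 (0.762 to 1.22) and 0.907 for Treg Ku70 (0.792 to 1.03), with intervals that contain 1. For Tconv Ku70 it was 0.304 (0.196 to 0.452). The bases in these ratios were not limited to single-copy sequence. Masked bases made up 28.8% of very long genes and 38.8% of bases outside protein-coding genes. Dropping multi-copy regions, which were commoner outside genes, therefore raises the ratios by construction, and they are not densities on unique sequence. Among members, 2 outside the shared sites held strong short-period repeats: a Tconv Ku70 member in Fhit matched itself at 94.7% of bases when shifted by 36 bp, and a WT FOXP3 member in Immp2l at 86.9% when shifted by 34 bp. These were picked after their values were seen.

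Along the genes the members showed no strong preference. In 5 equal parts from the 5′ to the 3′ end WT FOXP3 had 20, 22, 18, 21 and 19 members. Treg Ku70 had 56, 57, 46, 65 and 73. The last part held 24.6% of the Treg Ku70 members (95% Wilson interval 20.03% to 29.8%) and 19.6% of the eligible bases. The middle part held 15.5% of them (11.8% to 20.04%) and 20.15% of these bases. Both intervals just leave out the share of bases. KO FOXP3 had 7, 6, 7, 12 and 6, and Tconv Ku70 10, 5, 7, 7 and 4. All members lay in introns of their very long gene except 5 Treg Ku70 members in exons of Csmd1, Fat3, Rora, Npas3 and Sorcs3. Of these the first 4 lay more than 98.0% of the way along their genes. Exons of other genes that overlap a very long gene were not checked. The median distance to the nearest transcript start was 34.2 kb for WT FOXP3, 48.0 kb for KO FOXP3, 41.5 kb for Treg Ku70 and 43.2 kb for Tconv Ku70.

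Neighbouring members of a list within a gene were far apart. The median gap was 236 kb for WT FOXP3 (19 gaps), 215 kb for KO FOXP3 (9), 168 kb for Treg Ku70 (151) and 191 kb for Tconv Ku70 (8). Gaps under 10 kb numbered 5 in the Treg Ku70 list, with the closest pair 690 bp apart in Agbl1, and 1 in the Tconv Ku70 list, in Lingo2. Genes hit more than once were thus hit mostly at separate places.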

How the data were processed

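Libraries of 4 sets were compared with inputs. Per the labels and methods, reads were trimmed (Trim Galore), mapped to mm10 (Bowtie2) and freed of duplicates (Picard), and the authors ran MACS2 on pooled replicates (p-value limit 0.05, extension 140 bp, no model); versions were not given in the sources used here. The deposited lists hold a fold (a ratio of ChIP to input), a −log10 p and a −log10 q per summit, and no counts. Depth was not analysed here.

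Rows with the same coordinates were collapsed, keeping the highest fold. Genes came from GENCODE M21. Eligible bases were those outside assembly gaps and more than 3 kb from any transcript start. Lists were compared by Fisher's exact test with Benjamini-Hochberg adjustment over 3 pairs, shares by Wilson and densities by exact 95% Poisson intervals (scipy 1.17.1, Python 3.11.15). The assignment of positions to genes was tested on simulated data. The members and gene groups were chosen with earlier results of these data known. Named genes were the 3 with most members per list, those in all 4 lists, the 5 with most members, the 5 longest and the longest without a member; named regions were the 3 with the highest −log10 p per list and all that overlapped another list.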

Additional observations from a re-analysis of the deposited data

How the results depend on the processing

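No paired analysis was possible because each set is 1 list called on pooled replicates, and for the same reason no replicate could be left out. Of 557 values under other settings, 510 stayed within the limits set for the value reported, 43 moved and 4 changed side. Most of these values came from leaving out 1 of the 19 autosomes, which removes few regions. The tally is therefore no measure of how robust the results are. The cause of a move was not tested where the construction does not show it. Higher odds in Treg Ku70 than in Tconv Ku70 held under every setting tried (odds ratios 1.77, with a 300 kb limit, to 4.04), with the highest adjusted p, 0.0437, for lists of equal size (2.41, Fisher's exact test). Leaving out a chromosome gave 2.92 to 3.47. Settings without the models Gm20388 and Fgfr2 and within GC classes were chosen after seeing the data.

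The share follows the length limit by construction. In the order WT FOXP3, KO FOXP3, Treg Ku70, Tconv Ku70, it was 10.5%, 10.7%, 9.17% and 5.38% with 300 kb, 3.96%, 5.07%, 3.52% and 1.24% with 750 kb, and 2.13%, 2.92%, 2.12% and 0.532% with 1 Mb. With 300 kb the Tconv Ku70 density ratio was 0.447, and 12 genes held 2 or more of its members. With 1 Mb the density ratio was 0.701 for Treg Ku70 and 0.182 for Tconv Ku70, genes with 2 or more members numbered 9, 3, 30 and 1 in the same order, and 0% of WT FOXP3 members overlapped a KO region and 0% of Treg Ku70 members a Tconv region.

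Beyond 10 kb from a start the Treg Ku70 share was 4.89% and the WT and KO overlap 0%, since the Dock2 site lies nearer. With single-copy summits the shares were 7.22% for WT FOXP3, 10.2% for KO FOXP3 and 6.49% for Treg Ku70. The density ratios for these lists were 0.971, 1.54 and 0.907, the first and last with intervals that reach 1. All eligible bases, repeats included, stayed in these ratios, so they are raised by construction. With this setting 8 genes had 2 or more WT FOXP3 members.

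With a −log10 p of at least 2 the WT FOXP3 share was 3.34% and its density ratio 0.466. Genes with 2 or more members then numbered 1 for WT FOXP3, 1 for KO FOXP3 and 25 for Treg Ku70, and 9.09% of WT FOXP3 members overlapped a KO region (1 of 11). With lists of equal size the WT FOXP3 share was 4.29% and its density ratio 0.594, 3 genes had 2 or more members in it and 3 in Treg Ku70, and 3.57% of Treg Ku70 members overlapped a Tconv region.

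The odds ratio of WT FOXP3 against Treg Ku70, 1.03 as reported, was 0.575 with a −log10 p of at least 2, 0.776 with lists of equal size, 0.993 without chromosome 14 and 0.997 without chromosome 16, and passed the threshold in none of these. Without chromosome 11 the WT and KO overlap was 0%, and without chromosome 12 the Treg and Tconv Ku70 overlap was 0%, because 1 site carries each. The lists hold no read counts, so depth per region is unknown.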
